A study of Homo sapiens with 4 samples.

Results

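The liver X receptors (LXRs), their sterol efflux targets and close partners were examined in A375 cells with and without p53. The group held 7 genes, chosen by name for what they do and found among the 26484 gene rows of the deposited table: the receptors NR1H2 and NR1H3, the transporters ABCA1 and ABCG1, the apolipoprotein APOE, the ubiquitin ligase MYLIP and the acyltransferase LPCAT3. A375 is an established human melanoma cell line, grown here in DMEM. Poly(A)-enriched RNA was sequenced from 2 libraries of the parental line, labelled p53 wild type, and 2 libraries of cells in which CRISPR-Cas9 had been used to knock out p53. The knockout columns of the table are numbered 2 and 8, and the libraries are called knockout 2 and knockout 8 here. Whether a group's libraries stem from independent cultures or from 1 clone is not in the labels, so the p-values here reflect library-to-library spread alone, which may be technical. Both controls are unedited parental cells, and the loss of p53 therefore cannot be told apart from the editing and selection themselves.

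LXRs are nuclear receptors that bind DNA as partners of the retinoid X receptors and are switched on by oxysterols, the oxidised forms of cholesterol. Active LXR raises ABCA1 and ABCG1, which hand cholesterol to lipoprotein acceptors, APOE, which carries it, MYLIP (also called IDOL), which marks lipoprotein receptors for destruction, and LPCAT3, which puts polyunsaturated fatty acids into membrane phospholipids. SREBP2 works the other way and raises cholesterol synthesis and uptake when sterols are scarce. In liver tumour models p53 has been reported to raise ABCA1 and thereby hold back SREBP2 maturation. In melanoma, APOE released under LXR control has been described as a brake on invasion, acting through the receptors LRP1 and LRP8.

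Sequences at ABCA1 are shown because this gene joins both arms of sterol control. Among the 7 genes, 6 had RefSeq promoter windows (GRCh38.p14, 250 bases before to 50 after each start). The LXR element sought (DR4) was AGGTCA, a spacer of any 4 bases and AGGTCA again, on either strand, with at most 2 of its 12 fixed letters differing. It was present in 2.34% of 35114 such windows. ABCA1 held it, and the best matches of MYLIP, NR1H2, NR1H3, APOE and LPCAT3 differed at 4 letters or more, where 72.5% of all windows held a match differing at 4 or fewer. The ABCA1 match lay on the strand opposite to the gene, with the substitutions C5T and A11C counted from the 5′ end of the repeat, and its far end was 69 bases before the RefSeq start (chr9:104928209-104928224). GENCODE places the earliest ABCA1 start 82 bases farther upstream, so the match also lies within an annotated first exon. The ABCA1 window also held an E-box, CACGTG, found in 7.26% of windows. The lines that follow both read 5′ to 3′ along the gene's minus strand. The first stretch is chr9:104928202-104928231, with the LXR-type repeat in capitals. The second is chr9:104928238-104928405, with the E-box in capitals.
ABCA1 repeat: caggcttTGACCGATAGTAACCTctgcgct
ABCA1 upstream: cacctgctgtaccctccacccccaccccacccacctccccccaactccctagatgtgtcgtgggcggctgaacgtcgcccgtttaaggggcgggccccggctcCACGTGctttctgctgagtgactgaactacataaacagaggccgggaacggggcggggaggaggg

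ABCA1 is also a textbook target of the miR-33 microRNAs, which are encoded inside the SREBP genes: miR-33a within SREBF2 and miR-33b within SREBF1, each on the strand of its host. The mature RNAs themselves were not measured in these libraries. Their RefSeq sequences are given with the seed (bases 2 to 8) in capitals, together with the stretches of the ABCA1 3′ UTR (GENCODE 29, chr9:104784155-104784184 and chr9:104782823-104782851, minus strand) that hold the seed's reverse complement, CAATGCA, also in capitals.
miR-33a-5p: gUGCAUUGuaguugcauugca
miR-33b-5p: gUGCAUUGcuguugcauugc
ABCA1 3′ UTR, proximal: tattCAATGCAATGCAattCAATGCAatga
ABCA1 3′ UTR, distal: tttaattgcaaCAATGCAaaagccaagaa
The 3313-base ABCA1 3′ UTR held 4 matches, of which 3 were packed into the proximal stretch and the first 2 overlapped. At least 4 matches occurred in 0.114% of 1755 3′ UTRs of like length, and at least 1 in 17.2% of them. For each gene only the transcript with the longest coding sequence was searched, and other annotated 3′ ends were not. In those transcripts, the 3′ UTRs of the other 6 genes held 0 matches. These were shorter, at 130 to 852 bases, and only 0.791% to 3.56% of 3′ UTRs of like length held a match. A sequence match is a description of the letters and does not show binding.

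Whole reads recovered from the normalized table totalled 29230554 to 36331894 per library. The parental libraries were much more alike than the knockout libraries, with a chi-square per degree of freedom of 5.85 and 65.3. The melanocyte lineage factor SOX10 was abundant in every library (25662 to 30033 normalized counts), while the pigment genes MLANA and TYR had 0 reads in all 4 libraries. Of 16 p53 target genes, DESeq2 called 10 lower and 0 higher (1.22% and 1.21% of all genes with an adjusted p). That list was written knowing earlier results of these data and is not independent evidence. DDB2, a DNA damage sensor, is one of them, with normalized counts of 2094 and 2126 in parental libraries 1 and 2, 1019 in knockout 2 and 1138 in knockout 8. From here on, pairs of values joined by "against" are normalized counts in parental libraries 1 and 2 and then in knockout 2 and knockout 8.

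The knockout mean of ABCA1 was 47.8% of the parental mean, the lowest among the 7 genes, and ABCA1, LPCAT3 and MYLIP lay below both parental libraries in both knockout libraries. The receptor NR1H3 was at 100.3% and 95.6% of the parental mean. In NR1H2, ABCG1 and APOE the knockout libraries did not both lie on the same side of the parental pair. Those of ABCA1 did, but they also differed, with knockout 8 at 2.14-fold the level of knockout 2. No gene of the group passed the test across all genes. The test was limma on log2(normalized count + 1) over 15431 genes with Benjamini-Hochberg adjustment, and log2 fold changes below are knockout minus parental on that scale. It called 0 of the 7 genes and 0 genes overall (0% in each direction). The edgeR quasi-likelihood test also called 0 of the 7 and 0% of all genes tested, so these counts say nothing particular about the 7. DESeq2 called 0 of the 7, and 1.22% lower and 1.21% higher of the 16330 genes to which it gave an adjusted p. Before adjustment, each of the 3 tools put 2 genes of the group, ABCA1 and LPCAT3, lower at p under 0.05 and 0 higher. Over all genes tested, 6.16% were lower and 5.85% higher at that level by limma, and 5.97% and 6.13% by edgeR. By DESeq2 the shares were 4.7% and 5.25% of the 16330 genes with an adjusted p. Both knockout libraries lay below both parental ones in 3 of the 7 genes and above them in 0, against 23.7% and 22.8% of all genes tested. The median log2 fold change of the 7 genes was -0.32, and that of all genes tested was -0.0057.

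**Figure D1:**
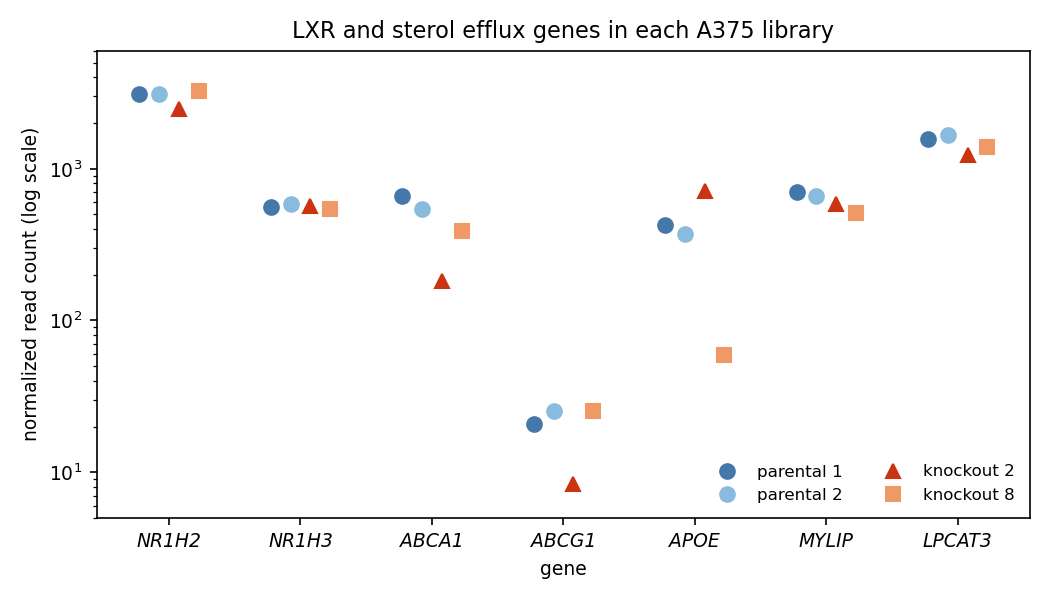
Normalized read counts (log axis) of the 7 genes, with 1 point per library: circles are parental libraries 1 and 2, triangles knockout 2 and squares knockout 8. ABCA1 lies at 183 in knockout 2 and 392 in knockout 8, APOE at 712 and 59.6, and NR1H3 stays between 545 and 582 in all 4 libraries.

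NR1H2, LXR beta, is the widely expressed receptor (chr19:50329653-50382982, plus strand, GENCODE 29 on GRCh38, as for the other positions given here). Its normalized counts were 3113 and 3114 in the parental line, 2491 in knockout 2 and 3244 in knockout 8. Knockout 2 was below and knockout 8 above a parental pair that nearly coincided, and the limma log2 fold change was -0.13 ± 0.14 (SE; adjusted p = 0.739). NR1H3, LXR alpha, is the receptor best known from liver and macrophages (chr11:47248300-47269032, plus strand). It had 558 and 582 against 571 and 545, and these ranges overlapped (log2 fold change -0.03 ± 0.11, adjusted p = 0.928). NR1H3 shares 189 exon bases with ACP2 on the opposite strand, and the strand setting of the counting is not given in the sources used here.

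Compared per length, NR1H2 was the more abundant receptor. Normalized counts per kilobase of merged exons in the parental libraries were 829.6 ± 0.211 (SD, n = 2) for NR1H2 and 126 ± 3.66 for NR1H3. Between them came LPCAT3 at 342 ± 16.2, MYLIP at 226 ± 8.89 and APOE at 183 ± 18.0. ABCA1 followed at 52.98 ± 7.05 and ABCG1 at 3.78 ± 0.532. In the parental libraries no neighbours in this order overlapped. With the longest transcript as the length, MYLIP (245) and APOE (332) changed places and the rest of the order held. In the knockout libraries APOE went from 325 per kilobase in knockout 2, above MYLIP at 194, to 27.2 in knockout 8, below ABCA1 at 34.5.

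ABCA1, the transporter that loads cholesterol and phospholipid onto lipid-poor apolipoproteins, lies at chr9:104781002-104928237 on the minus strand. Its normalized counts were 658 and 545 for the parental line (600 and 621 reads). Knockout 2 had 183 (174 reads) and knockout 8 had 392 (401 reads). Both knockout values lay below both parental ones, at 30.5% and 65.1% of the parental mean, and knockout 8 was 2.14-fold above knockout 2. The limma log2 fold change was -1.16 ± 0.39 (SE), with an unadjusted p of 0.0344 and an adjusted p of 0.388. Among all genes tested, 1.51% had a more negative fold change. The edgeR adjusted p was 0.398 and the DESeq2 adjusted p 0.141, at log2 fold changes of -1.06 by each. These values changed with the library left out. Without knockout 2, limma called ABCA1 lower by the remaining library (log2 fold change -0.61, adjusted p = 0.00408), as it did 10.3% of all genes. Without knockout 8 the log2 fold change was -1.70 (adjusted p = 9.48e-07), with 16.9% of all genes called lower. In such a fit the lone library is assumed to vary as little as the parental pair. DESeq2 gave -0.62 (adjusted p = 0.0517) without knockout 2 and -1.72 (adjusted p = 7.27e-11) without knockout 8. Without parental library 1, and likewise without library 2, the limma adjusted p was 0.999.

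ABCG1, which exports cholesterol to mature high-density lipoprotein, lies at chr21:42199689-42297244 on the plus strand and was close to the limit of measurement. Its normalized counts were 20.8 and 25.4 in the parental line, 8.42 in knockout 2 and 25.4 in knockout 8, from 19, 29, 8 and 26 reads. Exact 95% Poisson intervals on the normalized scale were 12.5 to 32.5 and 17.0 to 36.5 in the parental libraries, 3.63 to 16.6 in knockout 2 and 16.6 to 37.2 in knockout 8. These intervals hold for counting error alone, and reads copied by PCR are not independent molecules. The interval of knockout 2 overlapped that of parental library 1. The log2 fold change was -0.61 ± 0.59 (SE; limma adjusted p = 0.704). By limma it was 0.14 without knockout 2 and -1.35 without knockout 8, and by DESeq2 it was 0.13 and -1.46. Without knockout 8, limma called ABCG1 lower and DESeq2 did not. That comparison rested on the 8 reads of knockout 2 as its only knockout library.

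APOE, the lipoprotein that takes up exported cholesterol, lies at chr19:44905754-44909393 on the plus strand and gave the widest split between the knockout libraries. Normalized counts of 429 and 373 in the parental line stood beside 712 in knockout 2 and 59.6 in knockout 8. Knockout 2 was thus above both parental libraries and knockout 8 far below both, at 178% and 14.9% of the parental mean, a 12.0-fold gap between libraries of 1 label. A larger gap between the knockout libraries occurred in 62 of the 15431 genes tested (0.402%). Knockout libraries on opposite sides of both parental ones were seen in 2 of the 7 genes, APOE and NR1H2, and in 25% of all genes tested. The group comparison gave a log2 fold change of -0.95 ± 1.18 by limma (SE; adjusted p = 0.770) and -0.05 ± 1.42 by DESeq2 (adjusted p = 0.998), and the knockout libraries lay in opposite directions. By limma APOE was called lower without knockout 2 (log2 fold change -2.73, adjusted p = 5.36e-08) and higher without knockout 8 (0.83, adjusted p = 2.24e-04), when 10.3% and 15.7% of all genes were called in those directions.

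APOE is also a macrophage gene. The summed level of 11 macrophage markers was 1582 to 1815 in the parental libraries, 2506 in knockout 2 and 1270 in knockout 8. Most of it was the lysosomal CD68, with 1704 and 1448 against 2343 and 968, which is higher in knockout 2 and lower in knockout 8, as APOE was. LYZ, the lysozyme gene, was highest in knockout 8, with 80.0 and 113 against 114 and 263, and the integrin ITGAM was above both parental libraries in both, with 13.2 and 7.89 against 29.5 and 25.4. CD163, MARCO, C1QA and C1QB had 0 reads in all libraries. PTPRC, the pan-leukocyte marker, had 0 to 1.95 normalized counts. Fibroblast markers summed to 1299 to 1353 in the parental libraries, 2338 in knockout 2 and 1384 in knockout 8. Of this list of 8 genes, PDGFRA had 355 and 284 against 1033 and 368 and PDGFRB 829 and 847 against 1166 and 764. LUM went the other way, with 92.1 and 101 against 31.6 and 165, and COL1A2 and COL3A1 had at most 3.51 in any library. The part of other cells in the APOE values was not tested. In bulk RNA, fewer cells of a type and less RNA per cell cannot be told apart. The genes beside APOE did not part this way: TOMM40, the gene on one side, had 3096 and 3631 against 4575 and 3910, and APOC1, an apolipoprotein gene on the other side and also an LXR target, had 200 and 178 against 181 and 154.

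**Figure D2:**
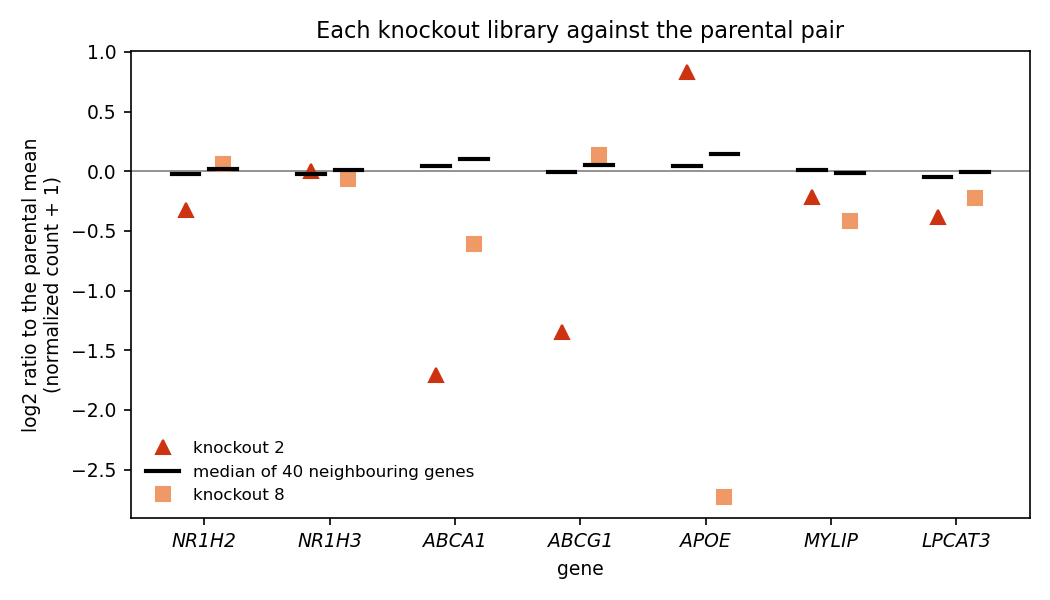
The log2 ratio of each knockout library to the parental mean (normalized count + 1) for the 7 genes, with triangles for knockout 2, squares for knockout 8 and black bars for the median of the 40 nearest well-measured genes. The bars all lie between -0.05 and 0.14, while ABCA1 lies at -1.70 and -0.61 and APOE at 0.83 and -2.73.

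The ligase MYLIP (chr6:16129125-16148248, plus strand) had 704 and 666 against 589 and 512. The groups did not overlap, and the limma log2 fold change was -0.32 ± 0.13 (SE; unadjusted p = 0.0563, adjusted p = 0.430). LPCAT3 (chr12:6976186-7018510, minus strand) had 1562 and 1671 against 1241 and 1382. Its groups did not overlap either, at a log2 fold change of -0.30 ± 0.10 (unadjusted p = 0.0319, adjusted p = 0.377). LPCAT3 shares 3100 of its 4725 exon bases with EMG1 on the opposite strand. Reads of this pair may be mixed or left uncounted if counting did not use strand, which would also affect the level of LPCAT3 per kilobase. EMG1 had 2745 and 2951 against 2949 and 2597, which overlapped. Without knockout 2, limma called MYLIP (adjusted p = 0.0144), and without knockout 8 it called LPCAT3 (adjusted p = 0.00384) and NR1H2 (adjusted p = 0.00424), all lower. Counted over the 7 genes, limma thus called 3 lower and 0 higher without knockout 2 (background 10.3% and 8.48%), and 4 lower and 1 higher without knockout 8 (16.9% and 15.7%). DESeq2 called 1 lower and 0 higher without knockout 2 (5.04% and 3.51%), and 3 lower and 1 higher without knockout 8 (9.14% and 7.96%). It called 0 without parental library 1 (0.0736% lower and 0.187% higher overall) or library 2 (0.102% and 0.191%), and limma likewise called 0 (0% overall).

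**Figure D3:**
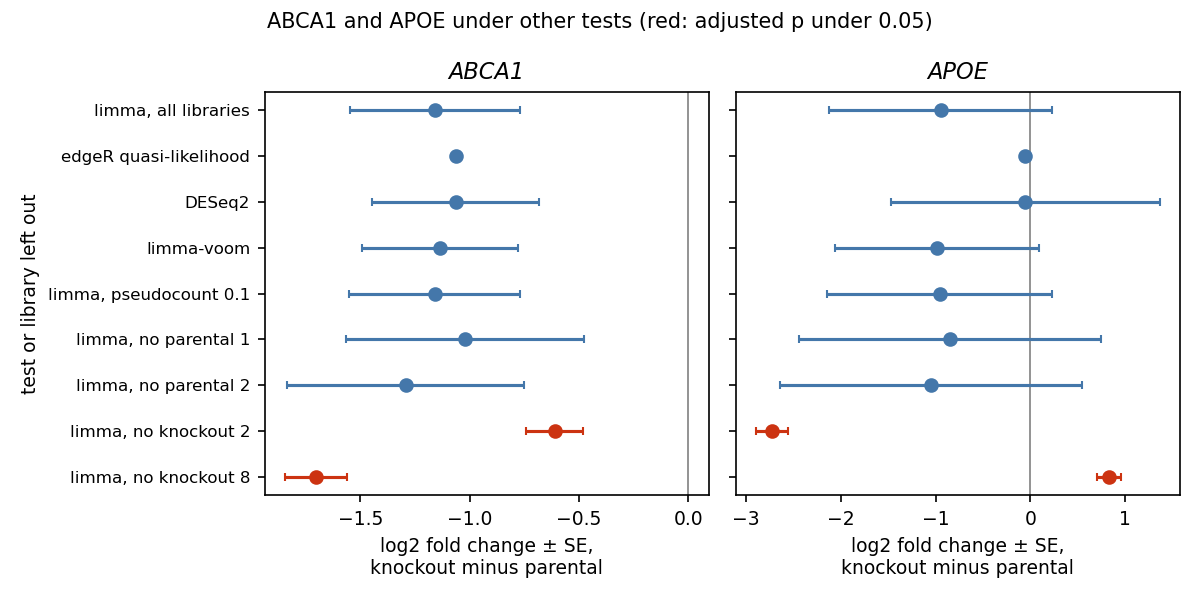
Log2 fold change (knockout minus parental) of ABCA1 on the left and APOE on the right under 9 fits, with bars of 1 standard error (none is given for edgeR) and red for an adjusted p under 0.05. ABCA1 stays below 0 throughout, from -1.70 without knockout 8 to -0.61 without knockout 2, while APOE turns from -2.73 without knockout 2 to 0.83 without knockout 8.

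Genes around the LXR system were counted in lists chosen by function, with 127 further genes in all, 110 of them tested. These lists too were written knowing earlier results of these data, so their counts are not independent evidence. By limma 0 of the 110 were called, as were 0% of all genes tested. Over all genes with an adjusted p, DESeq2 called 1.22% lower and 1.21% higher. DESeq2 called 14 of them lower and 1 higher, and called 0 of them without parental library 1 and 0 without parental library 2. Of 16 partners and coregulators DESeq2 called 0, and limma put 2 higher and none lower before adjustment (background 5.85% and 6.16%). These were RXRA, one of the retinoid X receptors, with 1141 and 1176 against 2093 and 1491 (adjusted p = 0.105 by DESeq2), and PPARGC1A, a coactivator, with 2.19 and 10.5 against 97.9 and 17.6. RXRB had 1875 and 1783 against 1679 and 1841, and RXRG 3603 and 4137 against 4708 and 3047, so that neither retinoid X receptor had groups that were apart.

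Among 17 other LXR target genes, 11 were tested, and DESeq2 called 2 lower and 0 higher (background 1.22% and 1.21%). Both serve fatty acid synthesis and are also SREBP targets. FASN, fatty acid synthase, had 42723 and 43326 against 27778 and 26979 (log2 fold change by limma -0.65 ± 0.10, DESeq2 adjusted p = 6.06e-07). SCD, stearoyl-CoA desaturase, had 25800 and 25343 against 13376 and 18331 (log2 fold change -0.71 ± 0.17, DESeq2 adjusted p = 0.0143). SREBF1, the LXR-driven source of SREBP1, had 7933 and 7889 against 5617 and 6359 and was not called (DESeq2 adjusted p = 0.0843). SMPDL3A and PLTP were not called. SMPDL3A, a phosphodiesterase, had 169 and 211 against 187 and 211. PLTP, the phospholipid transfer protein, had 5553 and 4746 against 4725 and 3660. The list median was -0.14.

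**Figure D4:**
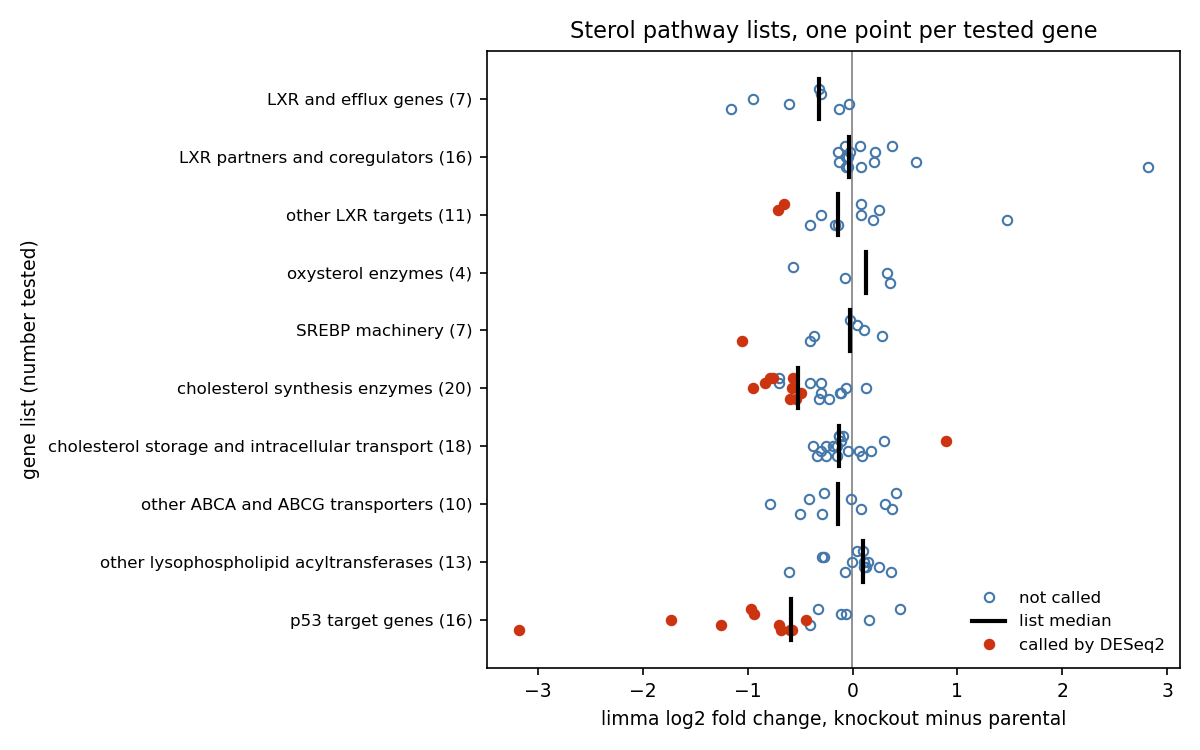
Limma log2 fold change (knockout minus parental) of every tested gene in 10 lists, with 1 circle per gene, red where DESeq2 called it, a black bar for each list median and a grey line for the median of all genes tested. Cholesterol synthesis has a median of -0.52 with 9 red points, against -0.32 and 0 red points for the 7 LXR and efflux genes. DESeq2 called 1.22% of all genes with an adjusted p lower and 1.21% higher.

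Among lipoprotein receptors, SCARB1, which binds high-density lipoprotein, had 7051 and 7193 against 4564 and 4665 and was called lower by DESeq2 (adjusted p = 1.38e-05). MYLIP acts on receptor proteins, which were not measured. Of its substrates, VLDLR had 598 and 401 against 507 and 655, and LRP8 had 6062 and 6448 against 6193 and 5544, and neither was called. LRP1, the other APOE receptor, had 8304 and 6429 against 7372 and 5863.

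In the SREBP machinery DESeq2 called 1 of 7 genes, INSIG1, lower and 0 higher (background 1.22% and 1.21%). SREBF2, which encodes SREBP2 and hosts miR-33a, had 10486 and 10518 against 7372 and 8956 (log2 fold change -0.37 ± 0.12, unadjusted p = 0.0292, DESeq2 adjusted p = 0.286). The groups did not overlap, as for ABCA1, and knockout 2 was again the lower library. Of 20 cholesterol synthesis enzymes DESeq2 called 9 lower and 0 higher (background 1.22% and 1.21%), and the list median was -0.52. HMGCS1, which makes the precursor of mevalonate, had 5669 and 6579 against 3213 and 3663 (DESeq2 adjusted p = 2.41e-05), and FDFT1, squalene synthase, 7925 and 7932 against 5246 and 5230 (adjusted p = 2.50e-05). The median absolute log2 difference between knockout 2 and knockout 8 was 0.115 for the enzymes, 0.381 for the 7 genes and 0.227 for all genes tested. Those differences were not tested against each other.

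The remaining lists gave few calls. Among genes that store or move cholesterol, DESeq2 called 1 of 18 tested higher and 0 lower (background 1.21% and 1.22%). This was NPC2, a lysosomal cholesterol carrier, with 1805 and 1673 against 4118 and 2528 (DESeq2 adjusted p = 0.0142). Of 9 oxysterol enzymes 4 were tested by limma and 0 called. DESeq2 gave 6 of them an adjusted p and called 0. Before adjustment it put 1 lower and 0 higher (background 4.7% and 5.25%). This was CYP7B1, which missed the limma filter, with 10 and 11 reads in the parental libraries and 0 in both knockout libraries. Its DESeq2 p was 0.00917 before adjustment and 0.196 after. CH25H, the cholesterol 25-hydroxylase, had 0 reads in all libraries, and CYP27A1, the 27-hydroxylase, had 760 and 691 against 554 and 853. Of 13 other lysophospholipid acyltransferases 0 were called, with limma putting 2 higher and 1 lower before adjustment (background 5.85% and 6.16%). The lower one was LPCAT4, with 1747 and 1633 against 1420 and 1348, and the higher ones were LCLAT1 and AGPAT2.

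The 5 genes whose profile over the 4 libraries was closest to that of ABCA1 were DDX39B, CLEC18A, LAMA3, NR3C2 and EYA1. The measure was the Euclidean distance between log2(normalized count + 1) values centred on each gene's mean, and it ran from 0.0875 for DDX39B to 0.175 for EYA1. LAMA3, a laminin chain, had 454 and 393 against 114 and 260, and EYA1 had 3493 and 3349 against 1049 and 2082. Of the other 6 genes of the group, ABCG1 came closest to ABCA1, at a distance of 0.728, with 380 tested genes closer, and APOE was farthest, at 3.30. DDX39B and CLEC18A had at most 25.2 normalized counts in any library, and CLEC18A has near-identical copies, so their values are uncertain.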

How the data were processed

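The authors' deposited table gives a normalized signal per gene symbol and library. Each value was a whole multiple of 1 step per library (100% within 0.001 reads), so whole reads were recovered, and the reads per unit equalled median-of-ratios size factors. The submitters' processing notes name the build hg38 and the tools STAR, HTSeq and DESeq2, with Picard and deepTools. Versions, annotation and strand setting were not given in the sources used here. Such scaling assumes that most genes do not change and leaves gene length uncorrected.

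Groups came from the labels. The main test was limma 3.58.1 (trend) on log2(normalized count + 1) for the 15431 genes reaching at least 10 normalized counts in 2 libraries, at an adjusted p of 0.05. edgeR 4.0.16, DESeq2 1.42.0 (16330 of 26484 rows with an adjusted p) and limma-voom took the recovered reads. With 2 libraries against 2, the smallest p of an exact permutation test is 0.333, and no such test was run. A log2 fold change on this scale understates changes of weakly expressed genes.

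The 7 genes and all lists (189 distinct symbols, all found) were chosen with earlier results of these data known. Named genes were all 7, list genes needed to account for a count, up to 4 per list that DESeq2 called, and the 5 nearest profiles to ABCA1. Neighbour medians used 20 genes on either side with a mean of at least 100. Positions and exon lengths came from GENCODE 29. The targeted gene's own row and some list genes are not reported here.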

Additional observations from a re-analysis of the deposited data

How the results depend on the processing

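With all 4 libraries, 0 of the 7 genes were called in either direction by limma, by edgeR with TMM or RLE factors, by DESeq2, by limma-voom, with a pseudocount of 0.1, with no low-count filter and at 1 CPM in 2 libraries, where ABCG1 dropped out. Leaving out a library gave 0 to 4 genes called lower and 0 to 1 higher by limma, and 0 to 3 lower and 0 to 1 higher by DESeq2 (chosen after seeing the data). Of the 110 further genes tested, DESeq2 called 14 lower and 1 higher (background 1.22% and 1.21%) against 0 by limma (background 0%). Without 1 library the counts ran from 0 to 37 lower and 0 to 13 higher by limma and from 0 to 27 lower (22 without knockout 2) and 0 to 8 higher by DESeq2. Each count above 0 came without a knockout library, and each fit without a parental library gave 0. Direction turned in 10 fits. Without knockout 2 ABCG1 had a log2 fold change of 0.14 by limma and 0.13 by DESeq2, and NR1H2 of 0.060 and 0.061. Without knockout 8 APOE had 0.83 by each, and NR1H3 0.0044 by limma and 5.9e-04 by DESeq2. Without a parental library DESeq2 gave APOE 0.046 (library 1) and NR1H3 4.7e-04 (library 2). The cause was not tested. Over all fits that left out 1 library, log2 fold changes ran from -1.46 (-1.35 by limma) to 0.14 for ABCG1, -0.32 to 0.061 for NR1H2, -0.064 to 0.0044 for NR1H3 and -2.75 to 0.83 for APOE, by limma from -2.73. The adjusted p of ABCA1 ran from 0.141 to 0.429 over the fits with all 4 libraries. The parental level per kilobase of NR1H2 was 219.5 times that of ABCG1 with merged exons and 196.5 times with the longest transcript. With 10 genes on either side, as with 20, 0 of 14 neighbour medians passed 0.2 in size. The largest was close to that limit, at -0.198 around NR1H2 in knockout 2 with 10 genes on either side. With 20 genes on either side it was -0.02, and NR1H2 itself lay at -0.32 in that library. Whether NR1H2 moved with its close neighbours was not tested. No paired analysis was possible because the knockout columns are numbered 2 and 8 where the labels number those replicates 1 and 2. Depth limits ABCG1, at 8 to 29 reads.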

Other observations

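Of the 4 genes beside ABCA1, 3 were also below the parental pair in knockout 2 but not in knockout 8. Over all genes tested, 43.5% were below both parental libraries in knockout 2 and 40.8% in knockout 8. NIPSNAP3A had 582 and 549 normalized counts (parental 1 and 2) against 367 and 765 (knockout 2 and 8), NIPSNAP3B had 456 and 368 against 279 and 417, and SLC44A1, a choline transporter, had 6626 and 6091 against 4349 and 7029. Their log2 ratios to the parental mean in knockout 2 lay between -0.62 and -0.55, against -1.70 for ABCA1, and the median of the 40 nearest genes was 0.04. The fourth, FSD1L, had 505 and 471 against 502 and 525. These neighbours were named after their values were seen.

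NR1H3 lies next to DDB2, the p53 target with 2094 and 2126 against 1019 and 1138 normalized counts. NR1H3 itself was at 100.3% and 95.6% of the parental mean in knockout 2 and knockout 8.

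Of 10 other ABCA and ABCG transporters tested, 6 were below both parental libraries in knockout 2 and 2 above, against 43.5% and 42.5% of all genes tested. In knockout 8, 1 was below and 6 were above, against 40.8% and 40.2%. No test was made of these counts. The 6 below in knockout 2 were ABCA5 to ABCA10, and ABCA5 to ABCA8 were among the 6 above in knockout 8. Positions of these genes were not examined. Genes that lie side by side may therefore be counted as separate, here and in the list median below. ABCA5 had 1580 and 1452 against 790 and 1634, and ABCA7, a close relative of ABCA1, had 343 and 327 against 188 and 396. ABCA2 had 5222 and 4433 against 5073 and 5083, nearly equal in the knockout libraries, and ABCA10 was lower in knockout 8 than in knockout 2, with 1137 and 1406 against 1018 and 785. DESeq2 called 0 of them. The median absolute log2 difference between the knockout libraries was 0.843 in this list, against 0.320 between the parental libraries, and against 0.227 and 0.0934 for all genes tested.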
